A study of Mus musculus with 4 samples.

Results

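A set of 8 genes of the IL-17 programme were described in leukocytes of mouse tumours: Il17a, Il17f, Il23r, Ccr6, Il17re, Il1r1, Tmem176a and Tmem176b. They were chosen by symbol and are 8 of the 32285 genes counted. Their RNA was followed through gamma-delta (γδ) T cells, CD4 T cells and the other T cells of 4 single-cell libraries. In γδ T cells Il23r, Il1r1, Tmem176a and Tmem176b were found in 61.5% or more of the cells of every library, and their levels stayed within 2-fold of each other across treatments. In CD4 T cells, Il17a was found in 6.90% of cells with the LTβR agonist and in 2.89% with both agonists, against 2.24% in untreated tumours.

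Tumours of KPC cells, which come from a mouse model of pancreatic cancer, were grown under the skin of C57BL/6 mice. One group was left untreated. Another was given ADU-S100 into the tumour, a compound that switches on the interferon-inducing sensor STING (STING agonist). The remaining groups were given an antibody that activates the receptor for lymphotoxin-β (LTβR agonist), or both treatments (combination). Live CD45+ leukocytes were sorted and their RNA was counted by droplet sequencing of the 5' ends, as unique molecular identifiers (UMIs). Tumours of a group were pooled, each group is 1 library, and the study's account of its experiments does not state which experiment these libraries came from. Neither the spread between mice nor that between experiments can therefore be seen. No test was possible, and every interval below is an exact 95% interval that covers counting error only.

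IL-17A and IL-17F are related cytokines released early by γδ T cells and later by Th17 cells, a CD4 T cell type. Both kinds of cell respond to IL-1 and IL-23 through receptors encoded by Il1r1 and Il23r, and can carry the chemokine receptor CCR6. In tumours the pathway is known for drawing in neutrophils, and the study asked how the agonists shifted the T helper subsets.

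The 8 genes lie on 3 chromosomes in GRCm38 (mm10). Il17a (chr1:20730905-20734496, plus strand) and Il17f (chr1:20777146-20790617, minus strand) are neighbours whose RefSeq start sites are 53365 bases apart. Tmem176a (chr6:48840919-48847071, plus strand) and Tmem176b (chr6:48833818-48841496, minus strand) overlap at their ends in these positions. Their RefSeq start sites are 346 bases apart and point away from each other. Il23r (chr6:67422932-67491855, minus strand) and Il17re (chr6:113458484-113470758, plus strand) are on the same chromosome as this pair. Il1r1 (chr1:40225080-40317257, plus strand) and Ccr6 (chr17:8236043-8257141, plus strand) complete the group. The 250 bases before the start were searched on both strands for 4 motifs. AGGTCA, a half-site that nuclear receptors bind, was present in 4 of the 8 genes and in 13.8% of 27025 mouse promoters of the same length. The RUNX motif TGTGGT was present in 2 (14.2% of promoters), the AP-1 motif TGANTCA in 1 (6.87%) and the STAT motif TTCNNNGAA in 1 (7.18%). The 4 windows shown are those that held AGGTCA, the motif with the most matches among the 8 genes. They are RefSeq sequence (GRCm38.p6), 5′ to 3′ on the strand of the gene, with AGGTCA or its reverse complement TGACCT in capitals. The Il17a window is chr1:20730655-20730904, the Il17f window chr1:20784271-20784494 (cut where another annotated transcript has an exon), the Il23r window chr6:67491856-67492105 and the Ccr6 window chr17:8235793-8236042.
Il17a: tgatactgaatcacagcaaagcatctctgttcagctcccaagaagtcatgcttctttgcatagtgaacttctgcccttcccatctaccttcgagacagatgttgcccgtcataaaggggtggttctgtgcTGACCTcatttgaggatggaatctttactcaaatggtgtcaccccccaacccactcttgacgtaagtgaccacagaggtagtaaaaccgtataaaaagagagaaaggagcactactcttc
Il17f: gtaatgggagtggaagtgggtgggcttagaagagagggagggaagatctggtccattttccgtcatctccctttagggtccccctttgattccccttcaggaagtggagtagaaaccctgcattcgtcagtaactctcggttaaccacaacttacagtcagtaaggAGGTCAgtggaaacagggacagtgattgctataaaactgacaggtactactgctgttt
Il23r: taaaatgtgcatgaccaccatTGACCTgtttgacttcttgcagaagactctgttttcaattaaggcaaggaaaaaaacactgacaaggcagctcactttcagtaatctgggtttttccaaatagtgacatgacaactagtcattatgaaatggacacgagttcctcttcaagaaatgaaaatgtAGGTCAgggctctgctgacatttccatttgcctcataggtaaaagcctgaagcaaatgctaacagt
Ccr6: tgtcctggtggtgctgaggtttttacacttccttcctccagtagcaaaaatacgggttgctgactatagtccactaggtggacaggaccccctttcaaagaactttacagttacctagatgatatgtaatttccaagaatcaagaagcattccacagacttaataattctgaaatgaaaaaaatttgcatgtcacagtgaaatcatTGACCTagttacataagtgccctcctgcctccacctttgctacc
Il23r held the letters at 2 places, at positions -229 to -224 and -66 to -61 before the start, and the other genes at 1 place each. A match is a description of the letters, and no binding was measured here.

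Values below follow the order untreated, STING agonist, LTβR agonist, both agonists. Of the barcodes in these libraries, 6783, 3748, 7147 and 5333 passed the quality filter. Median depth was 5750 to 7094 UMIs per cell, and any 2 libraries shared 29 to 52 cell barcodes, under 1% of either. Cells were clustered without the 8 genes, and 8 of 30 clusters were T-like by their markers, with 1555, 1102, 1708 and 1729 cells. Within these, γδ cells (at least 2 UMIs of the δ constant gene Trdc and fewer of the α constant gene Trac) numbered 39, 47, 36 and 73. CD4 cells (a Cd4 UMI and no Cd8a or Cd8b1 UMI) numbered 268, 271, 493 and 381. CD8 cells, the reverse, numbered 896, 531, 695 and 895, and other T cells, which met none of these gates, 352, 253, 484 and 380. A UMI of a CD3 chain, the marker that defines T cells, was present in 89.7% to 95.9% of γδ, 96.3% to 97.8% of CD4 and 69.0% to 78.1% of other T cells. The other T cells were also shallower, with medians of 2753 to 3452 UMIs against 4179.5 to 5249 in γδ and 4202.5 to 4786 in CD4 cells. Unnamed clusters of 986 and 551 cells scored highest for T and held a CD3 UMI in 95.1% and 48.5% of cells. They are in none of the T classes and were added only in an alternative.

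Each of the 8 genes had its own range over the leukocytes. Il17a, Il17f, Il23r, Il17re and Il1r1 were concentrated in γδ, CD4 and other T cells, and Il23r was also found in 3.41% to 8.72% of dendritic-like cells. CD8 cells were the deepest T cells, with medians of 5821 to 6910 UMIs, and served as background: Il17a was found there in 2 of 896, 0 of 531, 3 of 695 and 0 of 895 cells. In B- or plasma-like cells Il17a was found in 0 of 59, 0 of 15, 1 of 176 and 1 of 536 cells. Ccr6 was instead found most often in B- or plasma-like cells, and Tmem176a and Tmem176b also in dendritic-like and macrophage- or monocyte-like cells. No share of CD8 cells with a UMI of any of the 8 genes was above 3.35%.

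**Figure D1:**
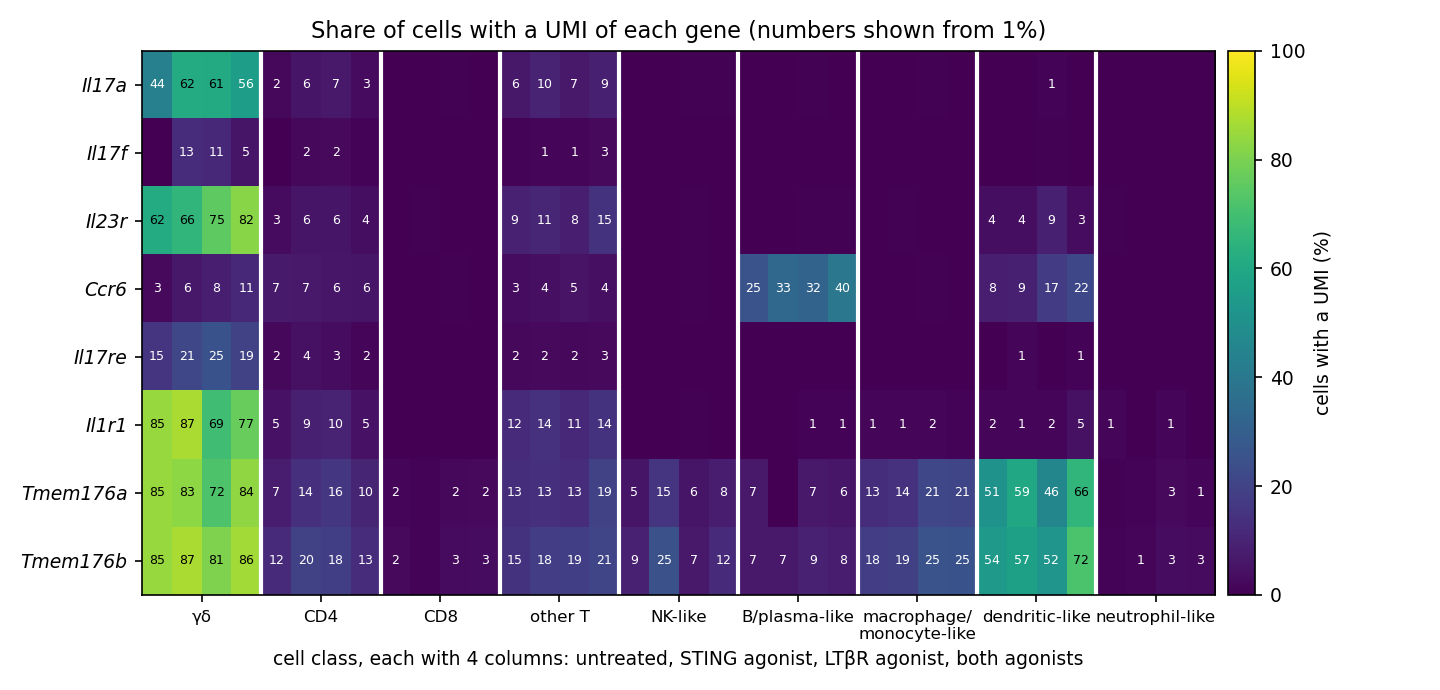
Percent of cells with at least 1 UMI of each of the 8 genes (rows) in 9 cell classes (column blocks), each with 4 columns in the order untreated, STING agonist, LTβR agonist and both agonists. Colour and number give the percent, and shares under 1% carry no number. γδ cells have the highest shares of the T classes except for Ccr6 in the untreated and STING agonist libraries and Il17f in the untreated library. Ccr6 is highest in B/plasma-like cells (25.4% to 39.6%), and the Tmem176 pair is also high in dendritic-like cells.

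Il17a encodes the cytokine that names the programme. In γδ cells it was found in 17 of 39 untreated cells (43.6%, interval 27.8 to 60.4). The STING agonist library had it in 29 of 47 (61.7%, 46.4 to 75.5), the LTβR agonist library in 22 of 36 (61.1%, 43.5 to 76.9) and the combination in 41 of 73 (56.2%, 44.1 to 67.8). The untreated share was the lowest and the intervals of all 4 overlapped. The level, as counts per 1e6 UMIs of these cells (CPM), was 1308, 3073, 1601 and 1407. The STING agonist library thus stood apart by level and not by share, and its positive cells held a mean of 29.5 Il17a UMIs each against 12.8 to 14.8 in the other libraries. On the log2 scale after adding 10 CPM, the STING agonist library was 1.23 above the untreated one and the combination 1.12 below the STING agonist one. The cell with the most Il17a UMIs held 13.1% of the STING agonist library's γδ Il17a UMIs and 22.3% of the untreated library's. With the γδ gate set at 4 Trdc UMIs the difference between combination and STING agonist was -0.85, short of 2-fold. After thinning of each cell to 1000 UMIs the shares were 32.6%, 50.6%, 50.6% and 40.6%, with the untreated library still lowest.

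In the LTβR agonist library the γδ cells also carried more UMIs of neutrophil and NK markers. The summed level of the 6 neutrophil markers was 2424 CPM there against 2.67 to 15.6 in the other libraries, and 459 of its 461 S100a8 and S100a9 UMIs were in 1 cell. The 7 NK markers summed to 556 CPM against 26.1 to 71.9. B or plasma markers were instead highest in the combination (80.2 CPM) and dendritic markers with the STING agonist (53.9 CPM). In the LTβR agonist library macrophage or monocyte markers were highest (1541 CPM) and markers of cells other than leukocytes lowest (90.9 CPM). Without T-like cells that carried 2 or more NK or neutrophil markers (3 of 36 γδ cells there), the log2 ratio of Il17a between the LTβR agonist and untreated γδ cells was 0.33, near the 0.29 with them. The direction of this ratio did depend on how T-like cells were found: with a marker score per cell in place of clusters it was -0.39.

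In CD4 cells the order of the libraries differed. Il17a was found in 6 of 268 untreated cells (2.24%, 0.826 to 4.81). It was present in 15 of 271 under the STING agonist (5.54%, 3.13 to 8.96), in 34 of 493 under the LTβR agonist (6.90%, 4.82 to 9.50) and in 11 of 381 under both (2.89%, 1.45 to 5.11). Both single agonists gave the higher shares, and the combination lay close to the untreated library. The share with the LTβR agonist was 3.08 times the untreated one (1.28 to 8.98) and the combination share was 0.419 times that with the LTβR agonist (0.191 to 0.846). Both of these intervals leave out 1. The corresponding intervals for the STING agonist over untreated (2.47, 0.906 to 7.78), the combination over the STING agonist (0.522, 0.217 to 1.22) and the combination over untreated (1.29, 0.437 to 4.25) include it. After thinning, the CD4 shares were 1.43%, 2.93%, 4.44% and 1.08%, and the combination was then the lowest.

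The levels of Il17a in CD4 cells were 74.0, 89.1, 125 and 18.8 CPM. By level the combination was the lowest of the 4, and its log2 ratio was -2.23 to the LTβR agonist, -1.78 to the STING agonist and -1.54 to the untreated library. The last of these rests largely on 1 cell. A single untreated cell held 52 of the 95 Il17a UMIs (54.7%), and it either lay in a T-like cluster led by the γδ gene Cd163l1 or carried a UMI of a γδ chain gene (Trdc, Trdv4, Tcrg-V6 or Tcrg-V4). Without the 9, 5, 14 and 5 CD4 cells of which this was true, the levels were 35.1, 91.2, 127 and 19.1 CPM. The combination's log2 ratio was then -0.63 to untreated, -1.80 to the STING agonist and -2.24 to the LTβR agonist, and the shares were 1.93%, 5.26%, 6.68% and 2.93%. CD4 cells with a UMI of Foxp3, the factor that defines regulatory T cells, held an Il17a UMI in 0 of 58, 0 of 49, 1 of 134 and 2 of 82 cells. The CD4 cells without Foxp3 held it in 2.86%, 6.76%, 9.19% and 3.01%, so the order of the libraries was also seen with regulatory cells left out.

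**Figure D2:**
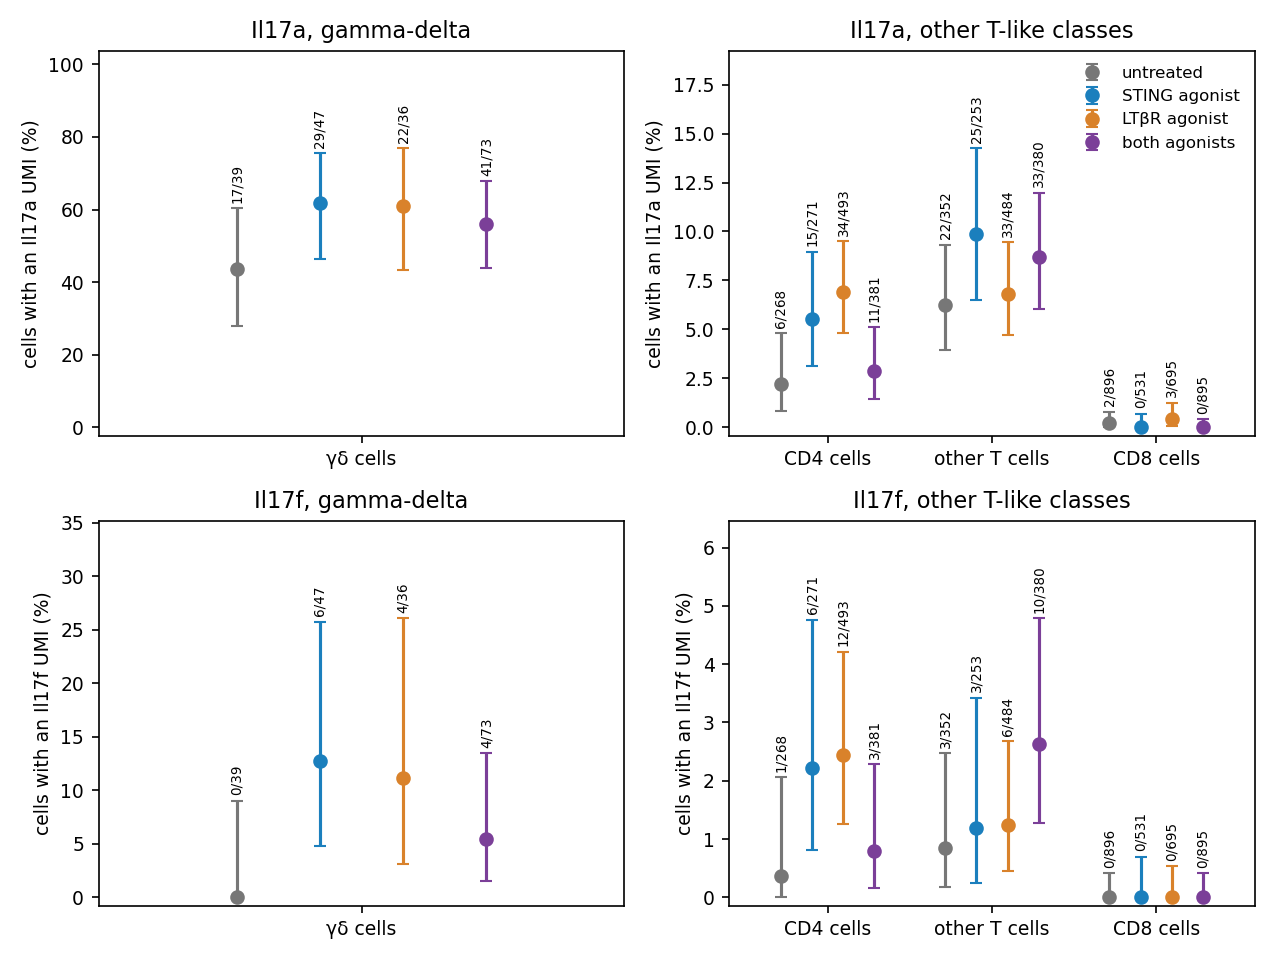
Percent of cells with a UMI of Il17a (top) and Il17f (bottom) in γδ cells (left) and in CD4, other T and CD8 cells (right), by library, with exact 95% counting intervals and the number of positive cells over all cells above each point. In CD4 cells both genes were found most often in the 2 single-agonist libraries, and the combination lay nearer to the untreated library.

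Other T cells held Il17a in 22 of 352 (6.25%), 25 of 253 (9.88%), 33 of 484 (6.82%) and 33 of 380 (8.68%) cells. Their levels were 136, 249, 89.9 and 171 CPM, so the combination was above the LTβR agonist here (log2 ratio 0.85) and below it in CD4 cells. Most of these positive cells sat in the Cd163l1-led cluster, which held 61, 39, 53 and 64 of the other T cells and 17, 16, 21 and 28 of those with Il17a. Other T cells with no CD3 UMI, among which innate lymphoid cells would fall, held Il17a in 7 of 109, 3 of 67, 1 of 106 and 2 of 88 cells.

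All T-like cells together held 548, 1216, 785 and 863 Il17a UMIs in 47, 69, 92 and 85 cells. γδ cells supplied 45.8%, 70.3%, 40.4% and 61.0% of these UMIs and CD4 cells 17.3%, 9.95%, 37.7% and 4.87%. By UMIs the LTβR agonist library was thus the one with a large CD4 contribution and the combination the one with the smallest. The untreated value includes the CD4 cell with 52 of 95 UMIs described above. By positive cells the CD4 part was 12.8%, 21.7%, 37.0% and 12.9%, so the untreated library and the combination were alike. T-like cells held 96.7% to 99.0% of all Il17a UMIs of filtered cells in the untreated, STING agonist and combination libraries. In the LTβR agonist library they held 71.9%. There, cells of the macrophage or monocyte clusters carried 187 Il17a UMIs in 17 of 3203 cells, and 1 of those cells held 44.9% of them.

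**Figure D3:**
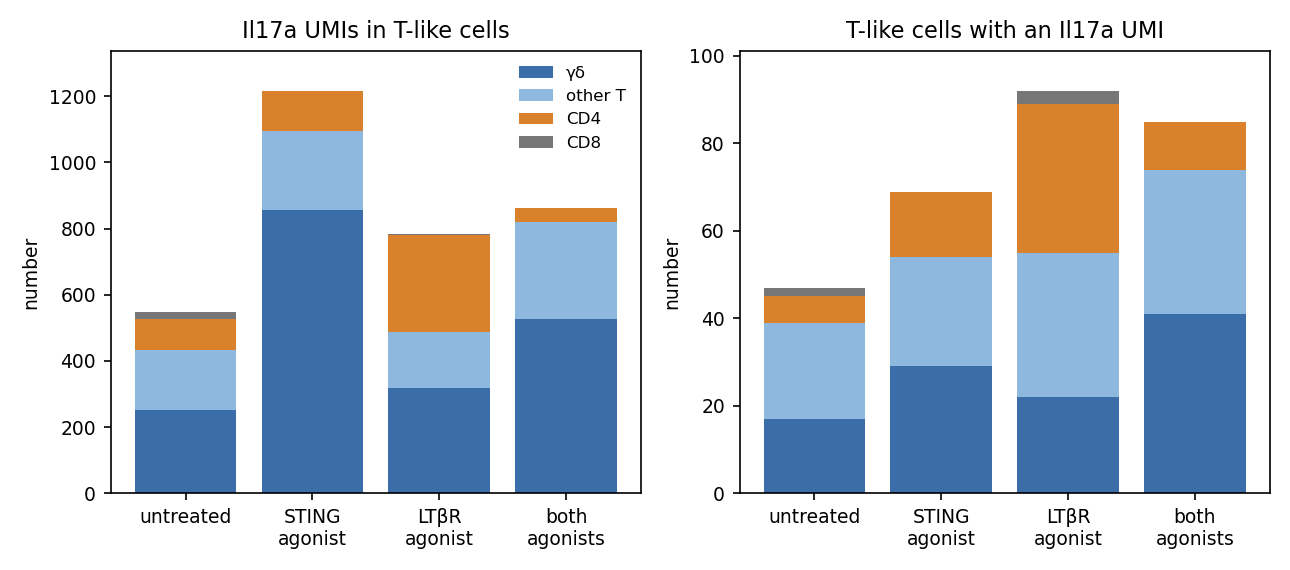
Number of Il17a UMIs (left) and of cells with an Il17a UMI (right) in T-like cells of each library, stacked by class. CD4 cells hold 37.7% of the UMIs in the LTβR agonist library and 4.87% in the library of both agonists, and γδ cells hold 70.3% with the STING agonist.

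Il17f, the neighbour and relative of Il17a, was rarer. In γδ cells it was found in 0 of 39, 6 of 47, 4 of 36 and 4 of 73 cells. The untreated count of 0 allows a share of up to 7.69% (9.03% by the exact interval), and the intervals with the STING agonist (4.83% to 25.7%), the LTβR agonist (3.11% to 26.1%) and the combination (1.51% to 13.4%) all overlap that range. A difference in share from untreated γδ cells was therefore not detectable at this depth. Levels in γδ cells were 0, 313, 247 and 24.1 CPM, and 1 cell held 44.8% of the UMIs with the STING agonist and 59.2% with the LTβR agonist. In CD4 cells it was found in 1 of 268, 6 of 271, 12 of 493 and 3 of 381 cells (0.373%, 2.21%, 2.43% and 0.787%), an order like that of Il17a, though 1 cell held 51.7% of the CD4 Il17f UMIs with the STING agonist. The ratio of the combination share to the LTβR agonist share was 0.323 (0.0586 to 1.20), which counting error alone cannot separate from 1. In other T cells the combination had the most, with 10 of 380 cells (2.63%) against 3 of 352, 3 of 253 and 6 of 484. The ratios of its share to the untreated, STING agonist and LTβR agonist shares were 3.09 (0.795 to 17.5), 2.22 (0.571 to 12.5) and 2.12 (0.699 to 7.11). Each of these intervals includes 1. No CD8 cell held an Il17f UMI in any library. Over all T-like cells, 4, 15, 22 and 17 cells held one, and the ratio of shares to the untreated library was 5.29 (1.69 to 21.9), 5.01 (1.70 to 19.99) and 3.82 (1.25 to 15.6). CD8 cells, which held none, made up 57.6%, 48.2%, 40.7% and 51.8% of T-like cells. These ratios therefore also depend on the make-up of the T-like cells, and that part was not tested.

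The γδ cells with Il17f were mostly not those with the common receptor. Of 195 γδ cells over the 4 libraries, 149 carried a UMI of Trdv4 or Tcrg-V6, the variable genes of the receptor typical of IL-17-producing γδ cells in skin, tumours and mucosa. Il17a was found in 84 of these (56.4%, 48.0 to 64.5) and in 25 of the 46 γδ cells with neither (54.3%, 39.0 to 69.1). Il17f was found in 3 of the 149 (2.01%, 0.417 to 5.77) and in 11 of the 46 (23.9%, 12.6 to 38.8). The cells with neither chain held 97.9% of the γδ Il17f UMIs and 33.4% of the γδ Il17a UMIs. By library they were 0 of 5, 5 of 9, 3 of 15 and 3 of 17 with Il17f, against 0 of 34, 1 of 38, 1 of 21 and 1 of 56 of the cells with a chain UMI. The direction was the same in each of the 3 treated libraries. Only with the STING agonist were the exact intervals apart (21.2% to 86.3% against 0.0666% to 13.8%). With the LTβR agonist and in the combination the intervals overlapped, on 3 positive cells against 1 in each library. The untreated library had only 5 cells without the chains. Of the 46 cells, 37.0% carried a Tcrg-V4 UMI, the variable gene of another IL-17-producing γδ type, against 3.36% of the 149. Depth was similar, with medians of 4079.5 and 4864 UMIs, and after thinning the Il17f shares were 16.99% and 0.324%. This division was made after the values were seen.

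**Figure D4:**
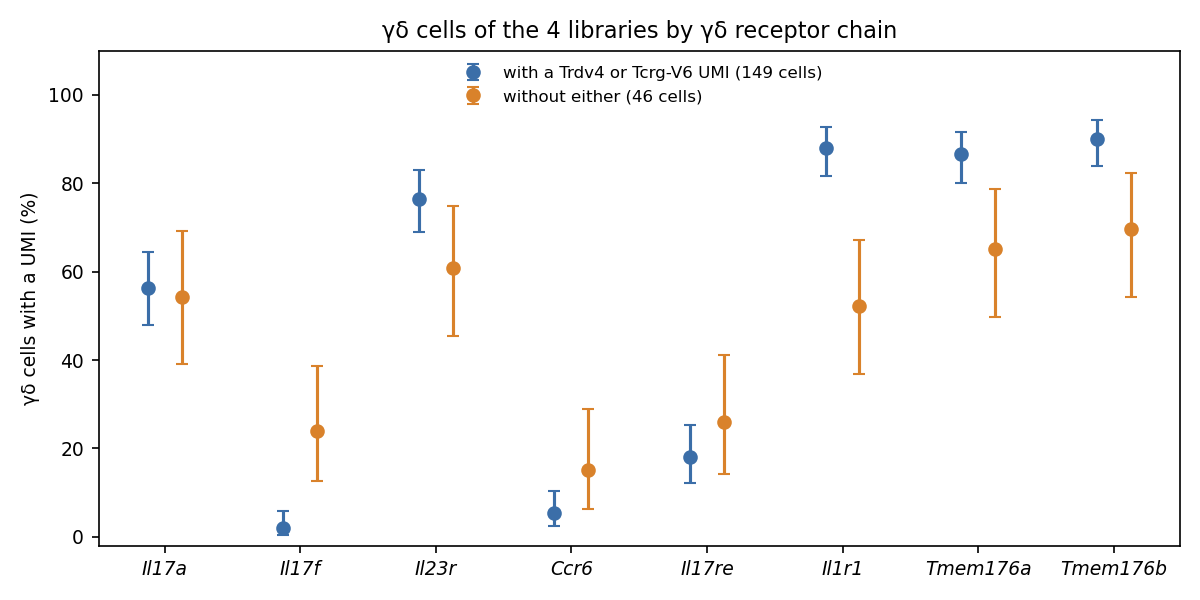
Percent of γδ cells with a UMI of each gene, over the 4 libraries, in 149 cells with a Trdv4 or Tcrg-V6 UMI and in 46 cells with neither. Bars are exact 95% counting intervals. Il17a is found in 56.4% and 54.3%, Il17f is found in 2.01% against 23.9%, and Il1r1 and the Tmem176 pair are found more often in cells with the chains.

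Il23r encodes the receptor chain that binds IL-23. It was found in 24 of 39 (61.5%), 31 of 47 (66.0%), 27 of 36 (75.0%) and 60 of 73 (82.2%) γδ cells, with levels of 391, 399, 349 and 519 CPM. The combination was highest by both measures, but its share was 1.34 times the untreated one with an interval of 0.819 to 2.24. After thinning the γδ shares were 29.5%, 30.8%, 33.5% and 40.0%. In CD4 cells Il23r was found in 8, 15, 28 and 14 cells (2.99%, 5.54%, 5.68% and 3.67%), again higher with a single agonist, with intervals of every ratio that include 1. In other T cells the combination had the highest share, 14.7% against 9.09%, 10.7% and 8.26%, and it was 1.78 times the LTβR agonist share (1.17 to 2.75). By level it was not the highest, at 72.0, 67.6, 56.9 and 68.2 CPM in the order of the libraries. The combination's other T cells were also the deepest, with a median of 3452 UMIs, and the part of depth in this share was not tested.

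Il1r1 encodes the signalling receptor for IL-1. It was found in 84.6%, 87.2%, 69.4% and 76.7% of γδ cells, and its levels there were 563, 575, 449 and 564 CPM, within 1.3-fold of each other. In CD4 cells it was found in 13 of 268 (4.85%), 24 of 271 (8.86%), 47 of 493 (9.53%) and 18 of 381 (4.72%). The LTβR agonist share was 1.97 times the untreated one (1.05 to 3.96), and the combination share was 0.496 times that with the LTβR agonist (0.271 to 0.869). The share ratio of combination to untreated CD4 cells was 0.974 (0.451 to 2.16). By level the order differed, at 36.6, 33.9, 49.9 and 20.2 CPM, with the combination lowest. The log2 ratios to untreated were -0.09 (STING agonist), 0.36 (LTβR agonist) and -0.63 (combination). In other T cells the shares were 12.2%, 14.2%, 11.0% and 14.5%, with no ratio whose interval left out 1.

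Il17re encodes a receptor chain for IL-17C, a relative of IL-17A made by epithelium. It was found in 6 of 39, 10 of 47, 9 of 36 and 14 of 73 γδ cells (15.4%, 21.3%, 25.0% and 19.2%). In CD4 cells it was found in 2.24%, 4.43%, 3.25% and 1.84%, so that the single agonists were again higher, and the interval of every ratio included 1. Ccr6 did not share the γδ pattern of the other receptors. It was found in 1 of 39, 3 of 47, 3 of 36 and 8 of 73 γδ cells, and in 7.09%, 7.01%, 6.09% and 5.51% of CD4 cells, where the 4 libraries lay close together. Its highest shares were in B- or plasma-like cells, with 15 of 59 (25.4%), 5 of 15 (33.3%), 56 of 176 (31.8%) and 212 of 536 (39.6%). In dendritic-like cells Ccr6 was found in 8.33%, 8.86%, 17.4% and 21.6%.

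Tmem176a and Tmem176b encode membrane ion channels of the same family. In γδ cells Tmem176a was found in 84.6%, 83.0%, 72.2% and 83.6% and Tmem176b in 84.6%, 87.2%, 80.6% and 86.3%, with no order among treatments beyond counting error. In CD4 cells Tmem176a was found in 20 of 268 (7.46%), 37 of 271 (13.7%), 78 of 493 (15.8%) and 40 of 381 (10.5%). Its share was 2.12 times the untreated one with the LTβR agonist (1.28 to 3.66) and 1.83 times with the STING agonist (1.03 to 3.33). Tmem176b was found in 11.9%, 19.6%, 18.5% and 12.6% of CD4 cells. The combination share of Tmem176b was 0.644 times that with the STING agonist (0.427 to 0.970) and 0.683 times that with the LTβR agonist (0.471 to 0.979). Outside T cells, dendritic-like cells held Tmem176b in 53.8%, 57.0%, 52.3% and 71.6%. In macrophages or monocytes, named by their cluster, it was detected in 18.0%, 19.1%, 25.4% and 25.1%, so in these cells the 2 libraries that received the LTβR agonist were above the other 2. These libraries also had more barcodes over the mitochondrial limit (5.99% and 6.78% against 2.71% and 2.68%) and lower median depth of kept cells (5750 and 5877 UMIs against 7094 and 6748), and the part of this in the difference was not tested.

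As a group, the 8 genes were set against all genes of the same cells, with past 2-fold meaning a log2 ratio of at least 1 in size and at least 20 UMIs over both libraries. Of the 5 pairs, 3 use the same untreated library, so their values are not independent. In CD4 cells, Il17f was past 2-fold higher with the STING agonist (1.54) and with the LTβR agonist (1.66), as were 0.326% and 0.21% of all genes measured, and none of the 8 was past 2-fold lower, where 0.472% and 0.231% of all genes were. Il17a alone was past 2-fold lower in the combination against untreated (-1.54), where 0.337% of all genes were, and none of the 8 was higher (0.653% of all genes). This value rests on the untreated cell with 52 UMIs described above: it was -0.63 without the CD4 cells of the Cd163l1-led cluster or with a γδ chain UMI, and the share ratio of 1.29 ran the other way. Against the STING agonist and against the LTβR agonist, Il17a and Il17f were both past 2-fold lower in the combination, where 0.567% and 0.322% of all genes were and 0.945% and 0.332% were higher. The medians of the 8 genes in these last 2 pairs were -0.57 and -0.54, against -0.05 and -0.02 over all genes measured. Both pairs use the same combination library and the 8 genes were often found in the same CD4 cells, so these values are not independent of each other. Against the untreated library, the medians of the 8 genes in CD4 cells were 0.42 (STING agonist), 0.50 (LTβR agonist) and 0.00 (combination), and 4 of the 8 were above 0 in the combination.

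In γδ cells, where each library had 36 to 73 cells, a 2-fold difference was more common in general. Il17a and Il17f were past 2-fold higher with the STING agonist (3.29% of all genes) and Il17f with the LTβR agonist (3.69%), where Il17f stood against a count of 0 in the untreated library. None of the 8 was past 2-fold lower there, where 4.81% and 4.99% of all genes were. In the combination none of the 6 genes measured was past 2-fold from untreated in either direction, where 2.4% of all genes were higher and 3.71% lower. Against the STING agonist Il17a and Il17f were past 2-fold lower in the combination (1.67% of all genes), and Il17f against the LTβR agonist (3.55%), with none of the 8 higher (2.2% and 3.46% of all genes). In γδ cells every log2 ratio of Il23r, Il1r1, Tmem176a and Tmem176b was between -0.32 and 0.56. In other T cells no gene of the 8 was past 2-fold in any pair. Of all genes there, 0.538% were higher and 0.829% lower with the STING agonist, 0.451% and 0.78% with the LTβR agonist, and 0.563% and 1.15% with the combination, each against untreated. For the combination over the STING agonist these shares were 1.2% and 0.563%, and over the LTβR agonist 0.303% and 0.252%.

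**Figure D5:**
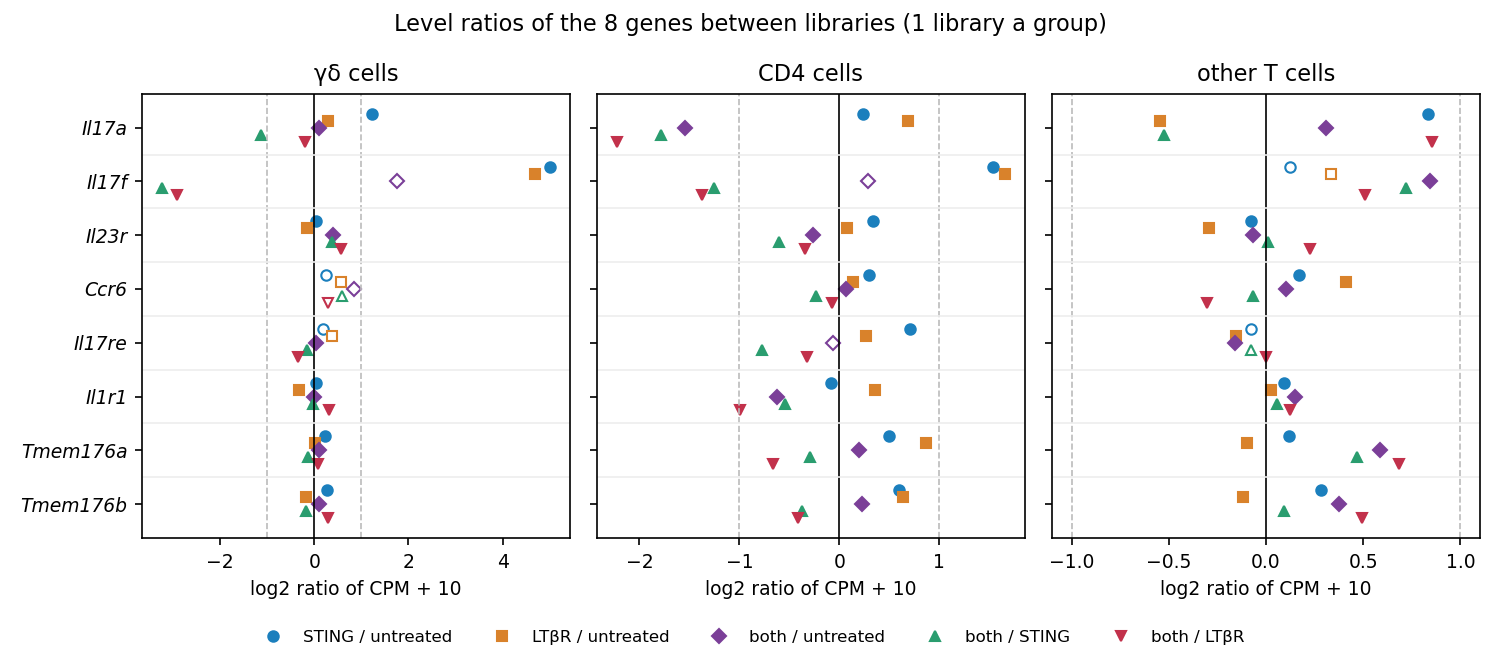
Log2 ratios of CPM + 10 for the 8 genes in γδ, CD4 and other T cells, for the 3 treated libraries over untreated and for the combination over each single agonist. Dashed lines mark 2-fold and open symbols stand for fewer than 20 UMIs over both libraries. In CD4 cells the symbols for the combination over a single agonist, which share the combination library, have medians of -0.57 and -0.54, and in γδ cells the symbols of Il23r, Il1r1 and the Tmem176 pair stay within 2-fold. The scale of the horizontal axis differs between panels.

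Cells with Il17a also held the other genes more often. Of the 66 CD4 cells with an Il17a UMI over the 4 libraries, 75.8% held Tmem176b, 57.6% Tmem176a, 48.5% Il1r1, 36.4% Ccr6, 33.3% Il23r, 24.2% Il17f and 12.1% Il17re. Of the 1347 CD4 cells without one, 12.9%, 10.2%, 5.20%, 4.83%, 3.19%, 0.445% and 2.45% did, at median depths of 4737.5 UMIs with and 4387 without Il17a. In γδ cells the gap was narrower, since the cells without Il17a held most of the genes as well: Tmem176b was found in 92.7% with and 75.6% without Il17a, Il1r1 in 89.9% and 66.3%, and Il23r in 78.9% and 65.1%. The last 2 intervals overlapped (70.0 to 86.1 and 54.1 to 75.1). The direction was not the same in every library: among untreated γδ cells Il23r was found in 10 of 17 with and 14 of 22 without Il17a.

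Other genes of the pathway were read from lists of cytokines, transcription factors, receptors, IL-17 receptor chains, upstream ligands, type 1 genes and γδ17 genes. Over all genes and pairs, 0.878% of values were past 2-fold in CD4 cells. In CD4 cells no measured transcription factor (8 or 9 of 13 in each pair), receptor (10 of 10), IL-17 receptor gene (2 of 5) or upstream ligand (3 of 8) was past 2-fold in any pair. Among 6 cytokines, Csf2, which encodes the growth factor GM-CSF, was past 2-fold higher with the STING agonist (1.46) and with the LTβR agonist (1.24), at 31.2, 103, 87.5 and 56.9 CPM. Il21, a cytokine of follicular helper and Th17 cells, was higher with the STING agonist (1.16) and with the combination (1.17), at 13.2, 42.0, 24.1 and 42.1 CPM. Il22, a Th17 cytokine that acts on epithelium, had 5, 0, 24 and 0 UMIs and was past 2-fold lower in the combination than with the LTβR agonist. Tnf (-1.06) and the type 1 chemokine receptor Cxcr3 (-1.24) were lower in the combination than with the STING agonist. Genes of the γδ list were also found in some CD4-gated cells, and Trdv4 was lower in every treated library than in the untreated one (31.2, 4.42, 2.11 and 1.34 CPM), as was 5830411N06Rik in the combination (17.1, 7.36, 21.1 and 2.24 CPM).

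In γδ cells, where 6.58% of values over all genes and pairs were past 2-fold, the lists showed differences in the receptor chains. Trdv4 stood at 1438, 2344, 667 and 1605 CPM and Tcrg-V6 at 599, 791, 187 and 540 CPM, so the LTβR agonist library was lowest for both. Cd163l1, a scavenger receptor of IL-17-type γδ cells, was also lowest there (1303, 1255, 626 and 1067 CPM), while 5830411N06Rik, a related gene, was highest (88.6, 144, 490 and 166 CPM). These values go with the larger part of γδ cells without Trdv4 or Tcrg-V6 in that library, 15 of 36, against 5 of 39, 9 of 47 and 17 of 73. Tcrg-V1 was past 2-fold lower in the combination than in the untreated library (62.5, 18.0, 10.1 and 24.1 CPM). Sox13, a transcription factor of γδ17 cells, was past 2-fold higher with the STING agonist (1.16) and the combination (1.18), at 78.2, 187, 106 and 190 CPM. Il22 was seen only in the STING agonist library, with 36 UMIs that were all in 1 of its 47 cells (2.13%). Tnf was lower in all 3 treated libraries (156, 71.9, 35.4 and 42.8 CPM). Tgfb1, which encodes TGF-β1, was past 2-fold higher with the STING agonist (167, 377, 197 and 313 CPM), and Tbx21, the type 1 master factor, was higher in the combination than with the STING agonist (36.5, 18.0, 40.4 and 56.2 CPM). Il1b (287, 208, 354 and 142 CPM) and Il1rn (57.3, 14.4, 70.7 and 26.7 CPM), which myeloid cells express strongly, were lower in the combination than with the LTβR agonist. The neutrophil markers given above were also highest in the γδ cells of the LTβR agonist library, where 1 cell held 459 of the 461 S100a8 and S100a9 UMIs. A link between these values was not tested.

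The partners of the programme in myeloid cells were measured too. Il23a, the IL-23 subunit, was found mainly in neutrophil-like cells, at 60.6, 64.6, 19.99 and 48.2 CPM, and had no UMI in γδ and CD4 cells. Il1b was found in 98.4% or more of neutrophil-like cells in every library, and its level in macrophage- or monocyte-like cells was 4979, 4882, 3919 and 3576 CPM. For Il17ra, the receptor chain shared by IL-17A and IL-17F, the share of macrophage- or monocyte-like cells with a UMI was 57.1%, 54.3%, 55.3% and 46.6%, and that of CD4 cells 24.3% to 28.0%. Il17rc, its partner chain, had at most 9 UMIs in any of these classes and libraries.

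A stress list of 9 early-response and heat-shock genes, which can respond to tissue dissociation, was measured in full in CD4 cells. Hspa1a stood at 39.7, 74.4, 139 and 39.4 CPM and Hspa1b at 37.4, 116, 162 and 24.2 CPM, so both were higher in the single-agonist libraries, in the order in which Il17a stood in these cells. Fos (164, 457, 189 and 274 CPM) and Fosb (60.8, 144, 82.0 and 130 CPM) were past 2-fold above untreated with the STING agonist, and Atf3 (69.3, 107, 29.6 and 57.8 CPM) was lower with the LTβR agonist. No gene of the list was past 2-fold from untreated in the combination. The part of these genes in the Il17a values was not tested.

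The genes outside the 8 with the most similar pattern were found over 16 points, the 4 T classes in 4 libraries, as Pearson correlations of log2(CPM + 10). The points share libraries and are dominated by the gap between γδ and other classes, so the values are descriptions. For Il17a they were Mmp25 (0.98), Smox (0.98) and Aqp3 (0.97), and for Il23r Mmp25 (0.99), Actn2 (0.98) and Cd163l1 (0.98). Il1r1 was most like Mmp25, Adam12 and Arl5b (0.98 to 0.99), Tmem176a like Arl5b, Mmp25 and Pgm2l1 (0.97 to 0.99) and Tmem176b like Arl5b, Znrf1 and Plcb4 (0.98 to 0.99). Il17re was most like Aqp3, Ncor1 and Actn2 (0.96 to 0.98). Il17f was most like Prr29 (0.95), Pdha1 (0.91) and Trip10 (0.91), and Ccr6 like Zc3h12a (0.96), Nfatc3 (0.95) and Irgm2 (0.94). Among the 8 genes themselves, Tmem176a and Tmem176b were closest (0.996), and Il17f and Ccr6 furthest apart (0.46).

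The Cd163l1-led cluster held 416 T-like cells and was led by γδ genes and by members of the programme that had not entered the clustering. In it Il17a was found in 36 of 105 (34.3%), 45 of 86 (52.3%), 44 of 87 (50.6%) and 69 of 138 cells, and Il23r in 50.5%, 59.3%, 58.6% and 81.9%.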

How the data were processed

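Leukocyte RNA was measured in 4 libraries, 1 per group. The authors made 10x Genomics 5' libraries, aligned them with Cell Ranger 7.1.0 to mm10 and deposited 1 matrix of raw UMI counts with 32285 genes, in which the number that ends a barcode gives the sample. Cells with 300 to 5000 genes and at most 6% mitochondrial UMIs were kept, the limits the study states. Counts scaled to 10000 per cell and log-transformed were clustered (2000 variable genes, 30 principal components, 20 neighbours, Leiden resolution 1) in scanpy 1.11.5, without the 8 genes and 640 V(D)J genes. A cluster was named from at least 3 detected markers, and stayed unnamed where markers of another class led or where depth was low with no own marker among its 10 leading genes. Of 30 clusters 26 were named. Doublets were kept. Cell gates are given in the text and were applied to T-like cells in the order γδ, CD4, CD8.

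UMIs were summed per library and class and scaled to CPM, with exact Poisson intervals. Shares have Clopper-Pearson intervals, and ratios of shares an interval conditional on the sum of positive cells, all at 95%. A count of 0 was given a limit of 3 counts. UMIs per gene were compared after adding 10 CPM, and the computations were tested on simulated data. PCR duplicates are removed by the UMIs, and intervals cover counting error only. The 8 genes, the pathway lists and the gates were chosen with earlier results of these data known. The genes named besides the 8 are list genes past 2-fold in CD4 or γδ cells with at least 20 UMIs over both libraries, genes always given (Il17ra, Il17rc, Il23a, Il1b and 1 that is not reported here), and the 3 most similar genes for each of the 8 among those with at least 50 UMIs in T-like cells. Alternatives changed the added CPM, scaling, clustering, T-like definition, gates, filters, doublet score limit and thinning. Leaving out T-like cells with NK or neutrophil markers, leaving out CD4 cells with γδ signs, and adding the unnamed T clusters were alternatives chosen after seeing the data. Positions come from GENCODE (GRCm38) and promoters from RefSeq.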

Additional observations from a re-analysis of the deposited data

Results flagged for a closer look

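With 1 library per group none of the differences here was tested. The log2 ratio of Il17a between combination and untreated was -1.54 in CD4 cells against 0.10 in γδ and 0.31 in other T cells, opposite in sign. The CD4 value rests largely on 1 untreated cell with 52 of 95 UMIs and was -0.63 without CD4 cells of the Cd163l1-led cluster or with a γδ chain UMI. By share of cells the ratio was 1.29 in CD4, 1.29 in γδ and 1.39 in other T cells, in the same direction. Between combination and LTβR agonist it was -2.23 in CD4 and 0.85 in other T cells. The log2 ratio of Il17f in CD4 and other T cells was -1.26 and 0.72 for the combination over the STING agonist, and -1.38 and 0.51 for the combination over the LTβR agonist.

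Some of the genes also stood above the untreated level outside T cells. Il17f was at 18.9 CPM in NK-like cells with the LTβR agonist and at 0 in untreated ones, with 62 UMIs in 2 of 687 cells and 95.2% of them in 1 cell. Tmem176b was at 117 CPM in NK-like cells with the STING agonist (63 of 256 cells) and at 44.5 CPM in untreated ones (40 of 437 cells). Tmem176b was at 605 CPM in dendritic-like cells with the combination (63 of 88 cells) and at 271 CPM in untreated ones (142 of 264 cells). In neutrophil-like cells with the LTβR agonist Tmem176a was at 16.1 CPM (10 of 382 cells) and Tmem176b at 32.3 CPM (13 of 382 cells), against 1.48 and 5.91 CPM in untreated ones, with 33.3% of the UMIs of each in 1 cell.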

How the results depend on the processing

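No paired analysis was possible because each group had 1 library. Over 120 log2 ratios and 117 ratios of shares, 3023 alternative values were computed. Only a log2 ratio past 2-fold or a share ratio whose interval left out 1 could count as reversed, and none did. Past 2-fold were 7 log2 ratios in CD4 cells, 6 in γδ and 0 in other T cells. A change of sign in any other ratio was not counted as a reversal, and 129 values left the counting interval. For Il17a in CD4 cells, the combination's log2 ratio with 50 CPM added was -0.85 to untreated, -1.02 to the STING agonist and -1.35 to the LTβR agonist. With the mean of CPM per cell, log2 ratios to untreated were 0.94 (STING agonist), 1.25 (LTβR agonist) and -0.83 (combination). Without the cell with the most Il17a UMIs in each library the LTβR agonist was 1.31 above untreated. Without CD4 cells of the Cd163l1-led cluster or with a γδ chain UMI, an alternative added after seeing the data, the values were 1.17, 1.60 and -0.63. For Il17a in γδ cells, the LTβR agonist was -0.39 from untreated with T-like cells taken from the marker score and -0.40 with all deposited barcodes. The combination was then 0.67 and 0.68 from the LTβR agonist, with share ratios of 1.92 and 1.95. A gate of 4 Trdc UMIs gave 0.42 to untreated, -0.85 to the STING agonist and 0.20 to the LTβR agonist for the combination. Against the LTβR agonist it was 0.32 with a gate of 1 Trdc UMI and 0.25 with the unnamed T clusters added. With all filtered cells as denominator the γδ share ratios were 3.09 (STING agonist) and 3.07 (combination) to untreated and 2.50 (combination to LTβR agonist), which follows from the larger γδ numbers. For the 8 genes, 7 of 38 gene and pair values were past 2-fold in CD4 cells (0.878% over all genes), 6 of 32 in γδ (6.58%) and 0 of 36 in other T cells (1.32%). Past 1.5-fold they numbered 17 (5.71%), 6 (24.4%) and 6 (8.17%). For the other pathway genes they numbered 19 in γδ, 12 in CD4 and 10 in other T cells, 50, 41 and 39 past 1.5-fold, and 12 in γδ and 7 in CD4 cells with at least 50 UMIs. The number of values measured for these genes is not given, so the counts cannot be set against the shares over all genes. Depth limits Ccr6, Il17re and Il17f, which rest on few UMIs per cell. Groups of 36 to 73 γδ cells cannot show share differences under about the width of the intervals given.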

Other observations

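In macrophage- or monocyte-like cells Tmem176a stood at 30.9, 34.5, 62.3 and 68.3 CPM and was found in 13.1%, 14.1%, 21.3% and 20.7% of 3325, 1554, 3203 and 1992 cells, in the order untreated, STING agonist, LTβR agonist and combination. Tmem176b followed with 55.3, 58.1, 104 and 116 CPM. The intervals of the 2 libraries with the LTβR agonist do not overlap those of the other 2 for either gene (for Tmem176a shares, 12.0 to 14.3 and 12.4 to 15.9 against 19.9 to 22.8 and 19.0 to 22.6), and the part of the higher mitochondrial share and lower depth of these 2 libraries, given in the report, was not tested. Ccr6 in B- or plasma-like cells stood at 64.3 CPM in untreated tumours (59 cells) and at 130 CPM with the combination (536 cells).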
